A study of Homo sapiens with 18 samples.

Results

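The transcripts of 32 genes that the tumour suppressor p53 is known to drive were followed in hTERT-RPE1 cells. The members were the rows of the deposited expression table whose current or older symbol stood in a list of 32 p53 target genes, and all 32 were found among 57773 rows. Averaged across all 18 libraries, 23 of them reached 0.5 RPKM and were tested together with every other gene that passed this limit. The other 9, whose mean was lower, are described apart. RPKM is a read number scaled to gene length and library size. In this table the length is the genomic span with introns, so long genes carry low values, and levels of different genes are set side by side only on a per-length scale.

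hTERT-RPE1 is an established, near-diploid human retinal pigment epithelium line immortalised with telomerase, and it is widely used as a line with intact p53. Polyadenylated RNA was sequenced from 6 groups of 3 biological replicates: ZM447439 4N, ZM447439 2N, cytochalasin D 4N, cytochalasin D 2N, untreated 4N and untreated 2N cells. ZM447439 inhibits Aurora kinases, and cytochalasin D blocks actin polymerisation and with it the last step of cell division. The 2N and 4N cells were separated by flow sorting on their DNA content. Per the labels, the medium held 10% serum, ZM447439 acted at 2.5 µM over 24 h, and Hoechst stained the DNA (2 µg/mL, 60 min). One treatment text is repeated for all libraries, and it names neither the dose nor the duration of cytochalasin D. A sort for 4N content collects G2 and mitotic cells of a diploid culture as well as G1 cells that have become tetraploid.

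As background, p53 is a transcription factor that is normally kept scarce by the ubiquitin ligase MDM2, itself the product of a p53 target gene. When p53 is stabilised, it binds paired half-sites in DNA and raises genes for cell cycle arrest, DNA repair, death and survival, metabolism, and its own restraint. In cultured epithelial cells, failed division is a known trigger of p53, and its target CDKN1A then holds the cells in G1. The control of p53 is largely at the protein level, which RNA does not show.

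The recognition sequence ties these genes to p53, so the promoters were searched for it. RefSeq promoter windows (GRCh38.p14), which run from 250 bases before to 50 bases after an annotated start, were at hand for 27 of the 32 members. A site was counted where 2 copies of the p53 half-site consensus, 10 bases each, adjoined with 0 bases between them, both C and G cores were intact, and at most 3 other letters were off. The consensus is its own reverse complement, so 1 reading covers both strands, and the half-sites of a site do not overlap. At least 1 site stood in the windows of 7 members (25.9%), against 1.37% of the 27305 genes with a window. The members were listed as known p53 targets, so a higher share was built into the list and is no test. Most members with a window, CDKN1A among them, had no such site. The sites are shown because they are the letters on which the rule of p53 binding rests. Capitals mark letters that match the consensus and lower-case letters those that do not, read 5′ to 3′ on the strand of the gene.
MDM2: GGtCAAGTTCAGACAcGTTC
FAS: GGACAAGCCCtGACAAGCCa
DDB2: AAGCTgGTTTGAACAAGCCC
RPS27L: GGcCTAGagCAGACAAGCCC
AEN: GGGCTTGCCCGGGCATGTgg
FDXR: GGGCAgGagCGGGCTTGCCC
GDF15: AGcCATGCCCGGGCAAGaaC
The MDM2 site lay at chr12:68808923-68808942 on the plus strand. It began at positions -94 and -101 relative to 2 annotated starts, and in GENCODE 29 it was inside 7 transcripts of the gene and in an exon of 0 of them, so it was intronic. The FAS site lay at chr10:88991309-88991328 (plus strand, from position -122 relative to a start), in an exon of 2 of the 13 FAS transcripts over it. The DDB2 site lay at chr11:47214969-47214988 (plus strand) and crossed the annotated start, with an exon of 1 of 3 transcripts over it. The RPS27L site lay at chr15:63157527-63157546 (minus strand), in an exon of 1 of 2 transcripts, and the AEN site at chr15:88621306-88621325 (plus strand), in an exon of the 1 transcript over it. The FDXR site lay at chr17:74872996-74873015 (minus strand), in an exon of all 5 transcripts over it, and the GDF15 site at chr19:18386186-18386205 (plus strand), 29 bases after the start and in an exon of all 3. The DDB2 site had 1 letter off, those of MDM2, FAS and AEN had 2, and those of RPS27L, FDXR and GDF15 had 3. No match in a window says only that these letters were not there, and many known p53 sites lie outside such windows.

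The implied library sizes were 51135642 to 78294394 reads. Of the 7 retinal pigment epithelium markers, BEST1, PMEL and OTX2 reached 0.5 RPKM, while the defining markers RPE65, RLBP1, TYR and MITF did not. As this limit is per genomic span, a long gene under it can still hold many reads. The keratins KRT8 and KRT18 (2 of 2) and the mesenchymal markers VIM, COL1A1 and PDGFRB (3 of 3) reached it, and 0 of 7 blood cell markers did, with summed levels of 0.146 to 0.284 RPKM. In each group 1 library stood apart from the other 2. These were replicate 1 of both ZM447439 and both cytochalasin D groups, and replicate 3 of both untreated groups. Read numbers per gene differed far more between such a library and the others of its group (mean chi-square 31.9 to 118 per gene) than between the other 2 libraries (4.77 to 9.51), which still differed by more than sampling noise. The libraries thus fell into 2 sets, chosen after seeing the data: 8 libraries (ZM447439 1, cytochalasin D 1, untreated 1 and 2) and 10 libraries (the rest). Of the 23 tested members, 21 were highest in replicate 1 of ZM447439 4N cells, 21 in ZM447439 2N, 22 in cytochalasin D 4N and 18 in cytochalasin D 2N cells, against 4 in untreated 4N and 5 in untreated 2N cells. Values within each set, and counts without the 6 libraries, are therefore given beside the results. Values within a set were computed for the members only. A shift of all genes within a set cannot be judged from them, so their counts are no result about the members. Without the 6 libraries, those left from drug-treated cells were all of the set of 10, and those left from untreated cells all of the set of 8. Drug and library set then cannot be told apart in any comparison with untreated cells.

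Changes below are log2(RPKM + 0.5) differences from limma with its SE, p-values are adjusted by Benjamini-Hochberg over 13037 genes, and 0.05 is the threshold. Values of single libraries are given in the order of replicates 1, 2 and 3. The library kit did not mark strand. MDM4, the relative of MDM2 that blocks p53, stood under the limit with group values of 0.315 to 0.327 RPKM in ZM447439 4N, 0.277 to 0.337 in ZM447439 2N, 0.405 to 0.428 in cytochalasin D 4N and 0.364 to 0.420 in cytochalasin D 2N cells, against 0.344 to 0.368 in untreated 4N and 0.279 to 0.315 RPKM in untreated 2N cells. Both cytochalasin D groups lay above the untreated groups of the same sort without overlap. Of 18 regulators of p53 on a list, 6 were tested. In ZM447439 4N against untreated 4N cells 2 rose and 3 fell, and in ZM447439 2N against untreated 2N cells 1 rose and 4 fell. In cytochalasin D cells 3 rose and 3 fell in the 4N sort, and 2 rose and 3 fell in the 2N sort. Of all genes, 19.6% rose and 35.5% fell in ZM447439 4N, 23.6% rose and 32.5% fell in ZM447439 2N, 26.1% rose and 44.4% fell in cytochalasin D 4N, and 27.1% rose and 39.5% fell in cytochalasin D 2N cells, so shares of 6 genes this close to the background are no result about the regulators. CASP2, the caspase of the PIDDosome that cuts MDM2 when centrosomes are in excess, fell to 0.960 ± 0.00422 RPKM in ZM447439 4N cells, against 2.04 ± 0.159 RPKM in untreated 4N cells (SD, n = 3 each; log2 change -0.80, SE 0.05). In cytochalasin D 4N cells CASP2 was 0.805 ± 0.0625 RPKM (log2 change -0.96, SE 0.05, against untreated 4N cells). CHEK1, a checkpoint kinase that phosphorylates p53, fell by 0.58 (SE 0.04) in ZM447439 4N and by 0.85 (SE 0.04) in cytochalasin D 4N cells. USP7, a deubiquitinase of MDM2 and p53, fell by 0.26 (SE 0.04) in ZM447439 4N and by 0.41 (SE 0.04) in cytochalasin D 4N cells. PIDD1, the scaffold of the PIDDosome, rose by 0.19 and 0.33 in these comparisons (SE 0.07 each). However, PIDD1 was lower in untreated 4N than in untreated 2N cells (-0.32, adjusted p = 0.00436). Against untreated 2N cells it fell in ZM447439 2N cells (-0.21, adjusted p = 0.0146). It did not pass in cytochalasin D 2N (-0.03), ZM447439 4N (-0.13) or cytochalasin D 4N cells (0.01) against untreated 2N cells.

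**Figure D1:**
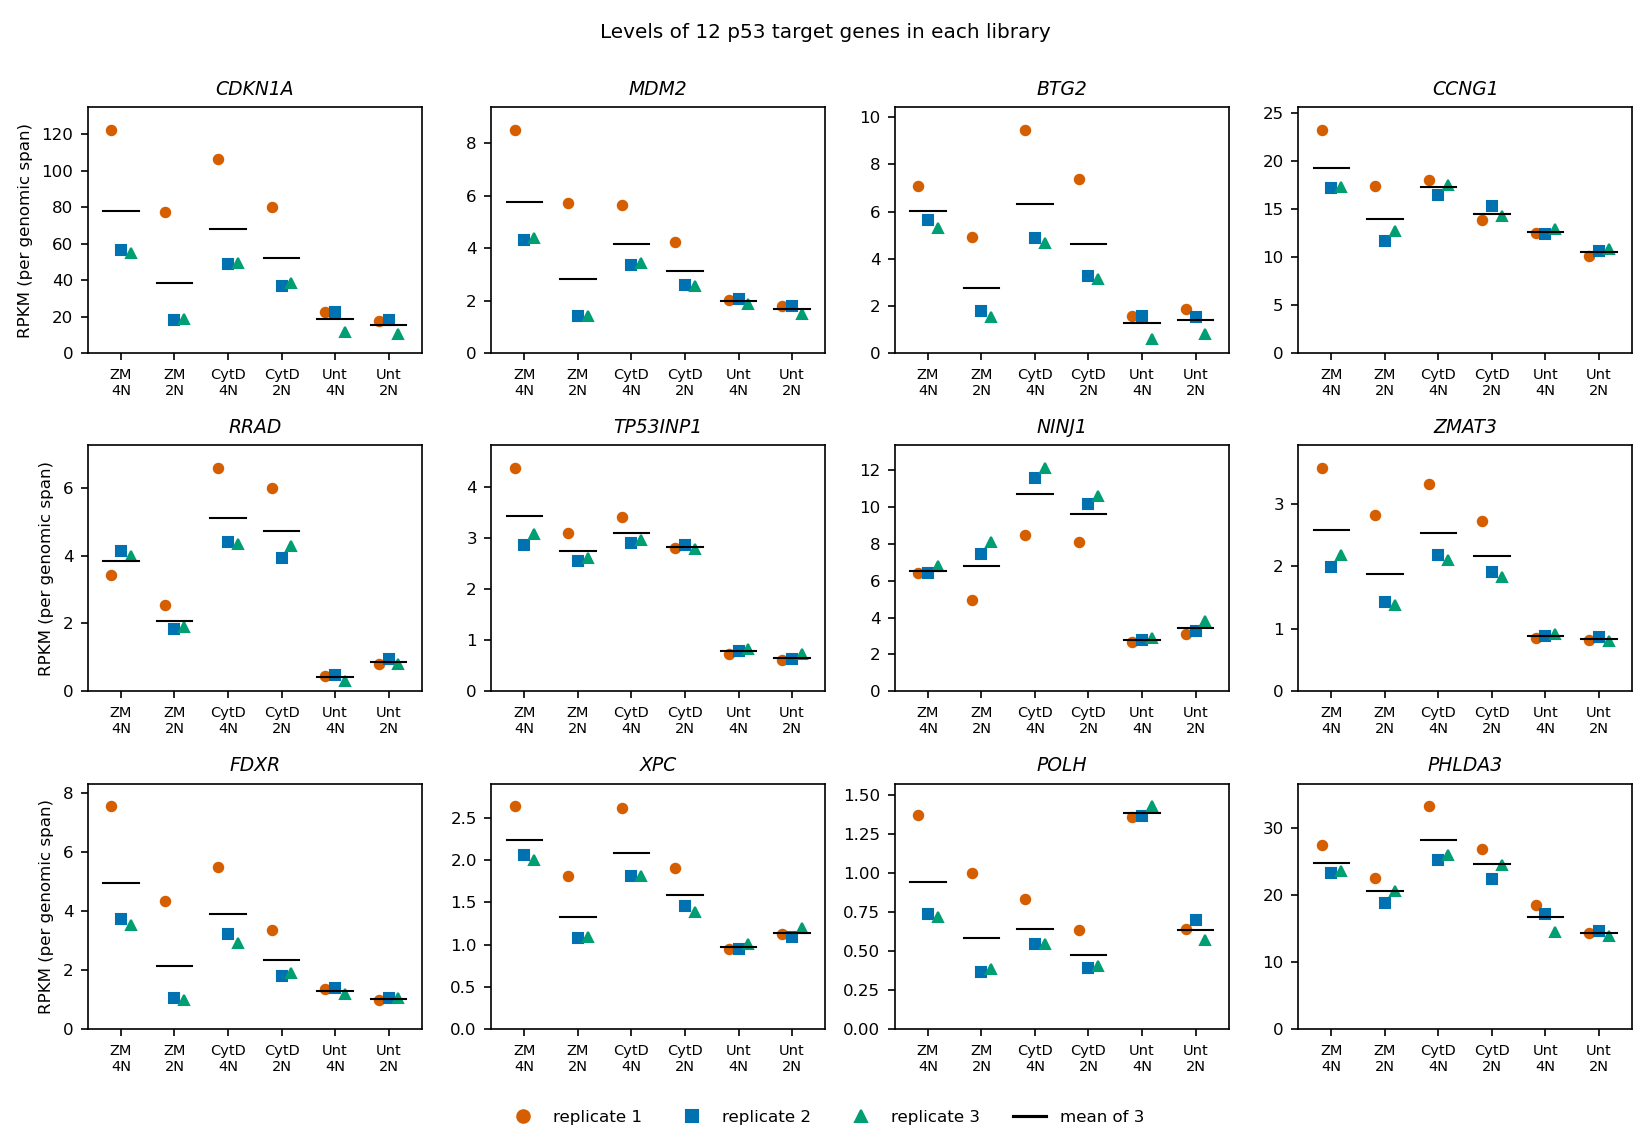
RPKM per genomic span (linear axes from 0) of 12 p53 target genes in each of the 18 libraries, with symbols for the replicate number and a line at the mean of 3; ZM is ZM447439, CytD is cytochalasin D and Unt is untreated. CDKN1A ran from 54.9 to 123 RPKM in ZM447439 4N cells and from 10.5 to 18.4 RPKM in untreated 2N cells, and PHLDA3 from 23.4 to 27.5 RPKM in ZM447439 4N cells and from 14.0 to 14.7 RPKM in untreated 2N cells.

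CDKN1A, which encodes the CDK inhibitor p21, and MDM2 were read in every library first. CDKN1A stood at 123, 56.8 and 54.9 RPKM in ZM447439 4N cells and at 77.7, 18.3 and 18.7 RPKM in ZM447439 2N cells. It stood at 106, 49.0 and 49.4 RPKM in cytochalasin D 4N cells and at 80.3, 36.9 and 38.6 RPKM in cytochalasin D 2N cells. In untreated cells it was 22.5, 22.7 and 11.4 RPKM in 4N and 17.8, 18.4 and 10.5 RPKM in 2N cells. Every 4N and 2N library of cytochalasin D and every ZM447439 4N library lay above all untreated libraries, whereas 2 of the 3 ZM447439 2N libraries lay within the untreated range. With reads scaled to exon length and library size, CDKN1A averaged 160.0 over the 18 libraries, the highest level among the members, ahead of 136 for PLK2.

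MDM2 stood at 8.52, 4.32 and 4.39 RPKM in ZM447439 4N cells and at 5.71, 1.40 and 1.40 RPKM in ZM447439 2N cells. It stood at 5.65, 3.35 and 3.43 RPKM in cytochalasin D 4N cells and at 4.23, 2.60 and 2.57 RPKM in cytochalasin D 2N cells. In untreated cells it was 2.01, 2.06 and 1.88 RPKM in 4N and 1.77, 1.80 and 1.49 RPKM in 2N cells. As with CDKN1A, all libraries of ZM447439 4N and of both cytochalasin D groups lay above the untreated ones, and ZM447439 2N replicates 2 and 3 lay below them. MDM2 overlaps CPM and other transcripts on the opposite strand, whose reads cannot be told apart from its own without strand.

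After ZM447439, most targets were higher in the 4N sort than in the 2N sort of the same number. Of 23 members, 18 were higher in 4N than in 2N cells in all 3 pairs (25.9% of all 13037 genes did so), and the member medians of the differences were 0.32, 0.51 and 0.46 in pairs 1, 2 and 3. The median of the fitted difference was 0.43 for the members and 0.01 for all genes. RRAD, XPC and CCNG1 passed when the 3 libraries of a group were taken as unpaired: 3 rose and 0 fell, where 5.21% of all genes rose. With the replicate block, which compares sorts of the same number, 16 rose and 0 fell, where 8.43% of all genes rose. Same-numbered 4N and 2N libraries deviated together in all 9 pairs, but each pair also lay within the same library set. Libraries of the same set deviated together across treatments too, so whether the numbers pair the sorts was not settled. In bulk RNA, a change in the share of cells that express a gene and a change in RNA per cell cannot be told apart.

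CDKN1A in ZM447439 4N against ZM447439 2N cells differed by 0.66, 1.61 and 1.53 in pairs 1, 2 and 3. Its mean difference of 1.26 had an SE of 0.54 (adjusted p = 0.172) without the block and of 0.16 (adjusted p = 0.00666) with it. MDM2 differed by 0.54, 1.34 and 1.37 (mean 1.08, SE 0.14, adjusted p = 0.00694 with the block and 0.0976 without). In both genes pair 1 had the smallest difference, and both libraries of pair 1 were the highest of their groups. The antiproliferative gene BTG2 stood at 7.10, 5.66 and 5.30 RPKM in ZM447439 4N cells, against 4.91, 1.77 and 1.53 RPKM in ZM447439 2N cells. These groups did not overlap, and the difference was 1.15 (SE 0.17 with the block, adjusted p = 0.0104; adjusted p = 0.103 without).

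XPC, which finds DNA lesions for nucleotide excision repair, stood at 2.64, 2.06 and 2.00 RPKM in ZM447439 4N cells, against 1.81, 1.08 and 1.09 RPKM in ZM447439 2N cells. The groups did not overlap, and XPC rose by 0.60 (SE 0.15, adjusted p = 0.0296; 0.00294 with the block). XPC overlaps XPC-AS1 and LSM3 on the other strand. RRAD, a small Ras-related GTPase linked to metabolic and growth control, stood at 3.44, 4.14 and 4.00 RPKM in ZM447439 4N cells, against 2.54, 1.82 and 1.89 RPKM in ZM447439 2N cells. All 3 of its 4N libraries were above all 3 of its 2N libraries, and it rose by 0.76 (SE 0.16, adjusted p = 0.0151). CCNG1, cyclin G1, which acts with a phosphatase on MDM2, stood at 23.2, 17.1 and 17.2 RPKM in ZM447439 4N cells, against 17.4, 11.7 and 12.7 RPKM in ZM447439 2N cells. Its groups overlapped only through replicate 1 of the 2N sort, and it rose by 0.45 (SE 0.13, adjusted p = 0.0429). Of the 23 members, 4 (RRAD, XPC, BTG2 and PHLDA3) were higher without overlap, as were 13.7% of all genes.

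With the block, the ZM447439 rises of 4N over 2N cells that passed included, besides CDKN1A, MDM2, BTG2, CCNG1, XPC and RRAD, FDXR, the mitochondrial ferredoxin reductase (1.20, SE 0.12), and AEN, an apoptosis-linked exonuclease (0.92, SE 0.16). FAS, the death receptor, rose by 0.81 (SE 0.14), and TNFRSF10B, the TRAIL receptor DR5, rose by 0.64 (SE 0.07). POLH, the polymerase that copies past ultraviolet lesions, rose by 0.43 (SE 0.05), and TRIAP1, a mitochondrial survival factor, by 0.65 (SE 0.11). ZMAT3, a splicing regulator, TIGAR, a bisphosphatase that slows glycolysis, TP53INP1, a stress-induced autophagy and death factor, and PHLDA3, an inhibitor of AKT, rose by 0.26 to 0.39. TIGAR reached the limit narrowly, with a mean of 0.503 RPKM, and its highest group was ZM447439 4N. These cells helped it over the limit, so its rises in them are no independent support. NINJ1, PLK2, PLK3, RPS27L, GADD45A, TP53I3 and PERP did not pass, with differences of -0.12 to 0.21. Of these, NINJ1 was higher in 4N cells in pair 1 (0.34) and lower in pairs 2 and 3 (-0.20 and -0.23).

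The count for ZM447439 4N against 2N cells rested on single libraries. Without replicate 1 of the 2N sort 14 members passed, without replicate 2 or 3 of either sort 0 passed, and without replicate 1 of the 4N sort 1 passed. With the 6 libraries that stood apart left out, 19 rose and 2 fell, where 40.3% of all genes passed in either direction. The summed level of the proliferation genes MKI67, TOP2A, CCNB1, CCNA2 and CDK1 moved with this contrast: it was 23.2, 26.6 and 28.1 RPKM in ZM447439 4N cells, against 16.2, 9.45 and 8.04 RPKM in ZM447439 2N cells. Of these 5 genes, 4 rose and 0 fell. Their part in the result was not tested.

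**Figure D2:**
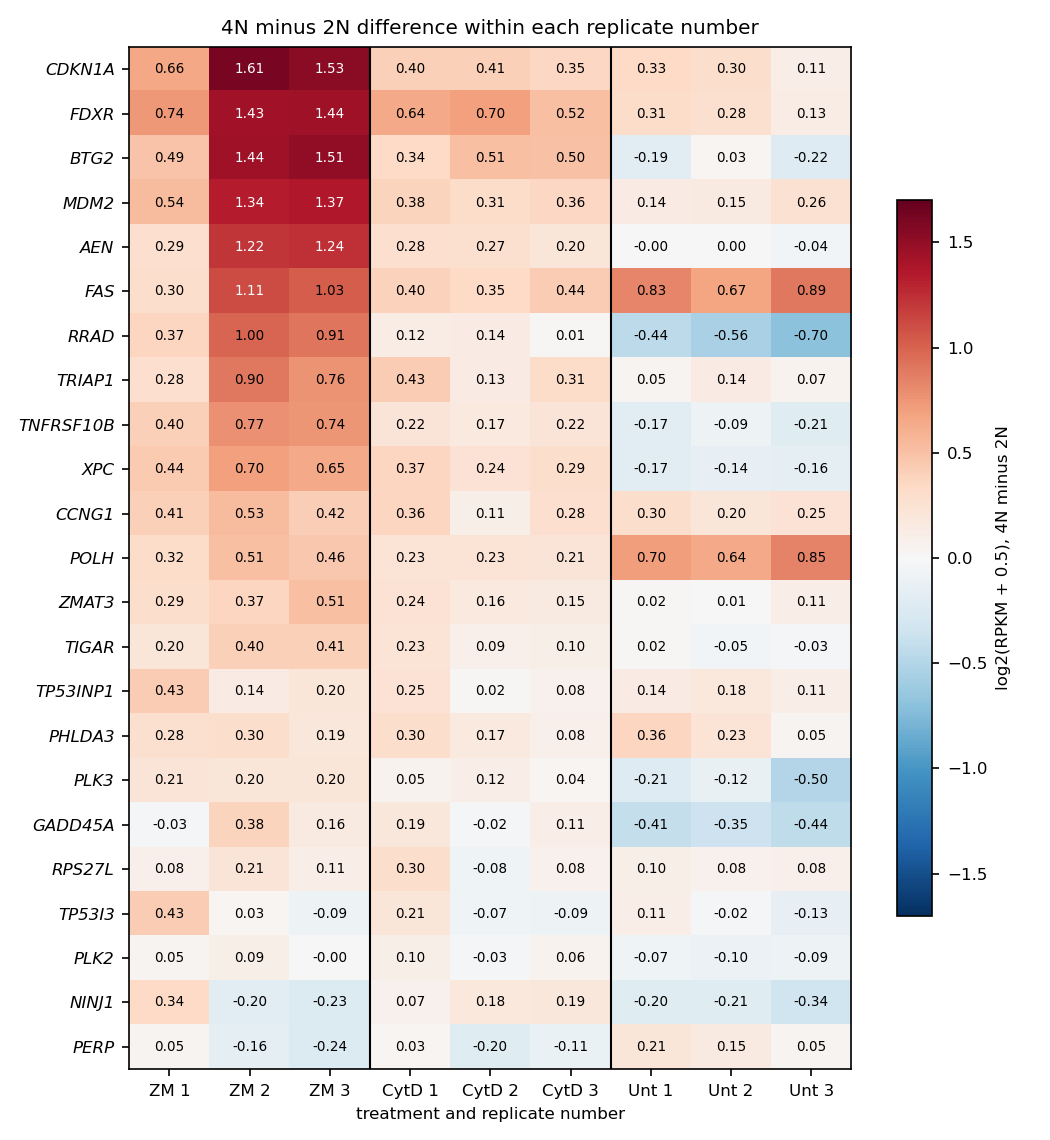
Difference between the 4N and the 2N library of the same treatment and replicate number, as log2(RPKM + 0.5), for the 23 tested p53 target genes; ZM is ZM447439, CytD is cytochalasin D and Unt is untreated. CDKN1A reached 1.61 and 1.53 in ZM447439 pairs 2 and 3, 0.35 to 0.41 in the cytochalasin D pairs and 0.11 to 0.33 in the untreated pairs.

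After cytochalasin D, the differences between sorts had medians nearer to 0. There 18 of 23 members were higher in 4N than in 2N cells in all 3 pairs, against 16.4% of all genes, but the medians of the differences were 0.25, 0.16 and 0.19. Limma called 0 members in either direction, where it called 0% of all genes, and 0 members had an unadjusted p under 0.05. With the replicate block 0 members passed, where 0.0230% of all genes did. With the block and RPM, which is reads scaled to library size without length, XPC alone of the 32 members passed (0.38, SE 0.06, adjusted p = 0.033), where 0.627% of 20106 genes did. The median was 0.19 for the members and -0.01 for all genes. When the 6 libraries that stood apart were left out, 9 rose and 1 fell, where 7.22% of all genes passed.

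FDXR had the widest of these cytochalasin D differences, with 5.50, 3.23 and 2.93 RPKM in 4N cells, against 3.35, 1.80 and 1.90 RPKM in 2N cells. Its values were higher by 0.64, 0.70 and 0.52 in pairs 1, 2 and 3 (mean 0.62, SE 0.39 without the block and 0.12 with it, adjusted p = 0.181 with the block). CDKN1A gave 0.40, 0.41 and 0.35 (mean 0.39, SE 0.16 with the block, adjusted p = 0.434), and MDM2 gave 0.38, 0.31 and 0.36 (mean 0.35, SE 0.14, adjusted p = 0.423). The differences were alike in the 3 pairs of both genes, and none passed. CCNG1 and TP53INP1 were the 2 members without overlap between cytochalasin D 4N and 2N cells, as were 5.61% of all genes in this direction. The summed proliferation genes were 11.6, 10.7 and 10.2 RPKM in cytochalasin D 4N cells, against 7.75, 4.29 and 4.04 RPKM in cytochalasin D 2N cells, and 0 of 5 passed.

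In untreated cells, where the sort separates cells mostly by cell cycle position, members went both ways. POLH rose and RRAD fell in 4N against 2N cells, so that 1 rose and 1 fell, where 17.4% of all genes passed in either direction. The member median was 0.05 and that of all genes 0.04. POLH stood at 1.36, 1.37 and 1.43 RPKM in untreated 4N cells, against 0.642, 0.699 and 0.571 RPKM in untreated 2N cells. The groups were far apart, and POLH rose by 0.73 (SE 0.20, adjusted p = 0.0199). RRAD stood at 0.457, 0.478 and 0.309 RPKM in untreated 4N cells, against 0.802, 0.937 and 0.814 RPKM in untreated 2N cells. Here too the groups did not overlap, and RRAD fell by 0.57 (SE 0.16, adjusted p = 0.0274). POLH overlaps GTPBP2 on the other strand.

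With the replicate block 4 members rose and 3 fell in untreated 4N cells, where 26.1% of all genes passed. FAS rose by 0.80 (SE 0.14, adjusted p = 0.00391; 0.199 without the block), with 2.97, 2.72 and 2.14 RPKM in untreated 4N cells, against 1.44, 1.52 and 0.924 RPKM in untreated 2N cells. CCNG1 rose by 0.25 (SE 0.05, adjusted p = 0.0105) and PHLDA3 by 0.22 (SE 0.06, adjusted p = 0.0404). GADD45A, a growth arrest and repair factor, fell by 0.40 (SE 0.07, adjusted p = 0.00572), and PLK3, a stress-response kinase, fell by 0.28 (SE 0.06, adjusted p = 0.0149). In all, 12 of 23 members were higher in 4N cells in all 3 pairs (40.1% of all genes were) and 7 were lower in all 3 (21.2% of all genes). FAS overlaps ACTA2 on the other strand.

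The unblocked calls of POLH and RRAD in untreated cells ended when any 1 of several libraries was left out, with 0 to 1 members passing. Replicate 2 of either sort was the only library without which 1 member passed. Leaving out the 6 libraries gave 9 that rose and 6 that fell, where 30.0% of all genes passed. CDKN1A differed by 0.25 (SE 0.16 with the block, adjusted p = 0.304) and MDM2 by 0.19 (SE 0.14, adjusted p = 0.39). The summed proliferation genes were 150.3, 145.5 and 163 RPKM in untreated 4N cells, against 49.4, 51.2 and 34.7 RPKM in untreated 2N cells, and 5 of 5 rose.

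Whether the difference between sorts itself depended on treatment was tested with interactions. Between ZM447439 and untreated cells, RRAD (1.33, SE 0.23, adjusted p = 0.00286) and XPC (0.75, SE 0.21, adjusted p = 0.0377) passed, both with the larger 4N minus 2N difference after ZM447439. These were 2 members up and 0 down, where 3.52% of all genes were up. With the block 13 were up and 1 was down, where 6.61% of all genes were up. The 13 included CDKN1A (1.02, SE 0.22, adjusted p = 0.0187), MDM2 (0.90, SE 0.20, adjusted p = 0.0185), BTG2 (1.28, SE 0.25, adjusted p = 0.0113) and FDXR (0.96, SE 0.18, adjusted p = 0.00923). POLH was the 1 down (-0.30, SE 0.07, adjusted p = 0.0216). Without replicate 1 of ZM447439 2N cells 8 members passed unblocked. RRAD passed without each library in turn and XPC did not, with adjusted p of 0.0538 to 0.0958 over the 11 omissions that ended its call. With the 6 libraries left out, 15 were up and 2 down, where 37.4% of all genes passed.

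Between cytochalasin D and untreated cells 0 members passed, where 7.85% of all genes did, and 3 had an unadjusted p under 0.05. With the block XPC, PLK3, TNFRSF10B, GADD45A and RRAD were up and POLH was down, where 14.8% of all genes passed, and without the 6 libraries 10 were up and 3 down (21.2% of all genes). Between ZM447439 and cytochalasin D, the 4N minus 2N differences gave 0 members and 0% of all genes, with the block and without it, and 1 member had an unadjusted p under 0.05. For CDKN1A the estimate was 0.88 (SE 0.77). Leaving out the 6 libraries put 14 up and 1 down, where 12.4% of all genes passed. The comparisons with untreated cells share the untreated libraries.

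In 4N cells, ZM447439 was accompanied by higher levels of most tested members, CDKN1A and MDM2 among them. Against untreated 4N cells 17 members rose and 0 fell, where 19.6% of all genes rose. The median was 0.80 for the members and -0.07 for all genes. The 4 members that rose most were RRAD, CDKN1A, BTG2 and TP53INP1. AEN, FAS, POLH, GADD45A, TRIAP1 and PERP did not pass. Without overlap, 18 of 23 were higher, as were 24.4% of all genes.

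RRAD stood at 3.44, 4.14 and 4.00 RPKM in ZM447439 4N cells, against 0.457, 0.478 and 0.309 RPKM in untreated 4N cells. The groups were far apart, and RRAD rose by 2.25 (SE 0.16, adjusted p = 5.22e-08). CDKN1A rose by 1.98 (SE 0.54, adjusted p = 0.00664), 4.14-fold between the group means of RPKM. BTG2 stood at 7.10, 5.66 and 5.30 RPKM, against 1.56, 1.58 and 0.612 RPKM in untreated 4N cells, where replicate 3 was lowest. It rose by 1.94 (SE 0.41, adjusted p = 0.00112). TP53INP1 stood at 4.38, 2.86 and 3.08 RPKM in ZM447439 4N cells, against 0.724, 0.784 and 0.829 RPKM in untreated 4N cells. The lowest ZM447439 4N library, at 2.86 RPKM, lay far above the highest untreated 4N library, and TP53INP1 rose by 1.60 (SE 0.11, adjusted p = 3.34e-08).

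Among feedback genes MDM2 rose by 1.26 (SE 0.38, adjusted p = 0.0116) and CCNG1 by 0.58 (SE 0.13) in ZM447439 4N against untreated 4N cells. Among the stress-response kinases PLK3 rose by 0.99 (SE 0.23) and PLK2 by 0.44 (SE 0.17, adjusted p = 0.0377). FDXR rose by 1.51 (SE 0.39), ZMAT3 by 1.12 (SE 0.22), NINJ1, a membrane protein of cell rupture, by 1.10 (SE 0.16), and TP53I3, a quinone oxidoreductase, by 0.91 (SE 0.23). XPC rose by 0.89 (SE 0.15), TNFRSF10B by 0.80 (SE 0.24), RPS27L, a relative of a ribosomal protein, by 0.61 (SE 0.11), PHLDA3 by 0.55 (SE 0.11) and TIGAR by 0.48 (SE 0.15). For TIGAR, the ZM447439 4N cells had helped it over the limit of mean RPKM. Within the 2 library sets, 23 of 23 members lay above 0 in the first (median 1.11) and 21 of 23 in the second (median 0.68), with no share of all genes to set beside them. MDM2, PLK2, TNFRSF10B and TIGAR lost their call without replicate 1 of ZM447439 4N cells (adjusted p = 0.0595, 0.128, 0.0562 and 0.0717). PLK2 also lost it without replicate 3 of ZM447439 4N cells and without replicate 1 or 2 of untreated 4N cells. With the 6 libraries left out, 18 rose and 4 fell, where 65.5% of all genes passed.

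Cytochalasin D 4N cells were read against the same untreated libraries. Of 23 members, 13 rose and 1 fell, where 26.1% of all genes rose and 44.4% fell. The median was 0.63 for the members and -0.13 for all genes. RRAD stood at 6.59, 4.40 and 4.33 RPKM in cytochalasin D 4N cells, far above the untreated 4N values given above, and rose by 2.60 (SE 0.16, adjusted p = 3.53e-09). BTG2 stood at 9.48, 4.88 and 4.67 RPKM, with replicate 1 highest, and rose by 1.95 (SE 0.41, adjusted p = 0.000679). CDKN1A rose by 1.79 (SE 0.54, adjusted p = 0.00884), 3.62-fold between the group means of RPKM.

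NINJ1 stood at 8.51, 11.6 and 12.1 RPKM in cytochalasin D 4N cells, against 2.65, 2.78 and 2.92 RPKM in untreated 4N cells. Unlike most members it was lowest in replicate 1, and it rose by 1.76 (SE 0.16, adjusted p = 1.57e-07). TP53INP1 rose by 1.49 (SE 0.11), FDXR by 1.23 (SE 0.39), ZMAT3 by 1.11 (SE 0.22), PLK3 by 1.08 (SE 0.23), XPC by 0.80 (SE 0.15), PHLDA3 by 0.73 (SE 0.11), TNFRSF10B by 0.63 (SE 0.24), TP53I3 by 0.60 (SE 0.23) and CCNG1 by 0.44 (SE 0.13). POLH fell by 0.73 (SE 0.20, adjusted p = 0.00434), to 0.836, 0.548 and 0.547 RPKM in cytochalasin D 4N cells, against 1.36, 1.37 and 1.43 RPKM in untreated 4N cells. MDM2 missed the threshold at 0.87 (SE 0.38, adjusted p = 0.0555), although its groups did not overlap. It passed after rescaling to a common median ratio (adjusted p = 0.0327), after quantile normalization (0.0274) and on the scale without length (0.0419). It also passed with the replicate block by number (0.0104), on the compared groups alone (0.00672), with the library set as a block (0.00108) and without the 6 libraries (1.28e-07). With another pseudocount, without the filter or with any 1 library left out, it did not pass.

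Within the 2 library sets, 21 of 23 members lay above 0 in the first (median 0.98) and 17 of 23 in the second (median 0.70) in cytochalasin D 4N against untreated 4N cells. The share of all genes above 0 was not computed within the sets. TNFRSF10B, FDXR and TP53I3 lost their call without replicate 1 of cytochalasin D 4N cells (adjusted p = 0.0985, 0.0551 and 0.152). TNFRSF10B also lost it without untreated 4N replicate 3, and TP53I3 without any 1 of the 3 untreated 4N libraries. Leaving out the 6 libraries gave 14 that rose and 5 that fell, where 76.9% of all genes passed. The summed proliferation genes were 23.2 to 28.1 RPKM in ZM447439 4N and 10.2 to 11.6 RPKM in cytochalasin D 4N cells, against 145.5 to 163 RPKM in untreated 4N cells, and all 5 fell in both comparisons. Their part in the results was not tested.

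**Figure D3:**
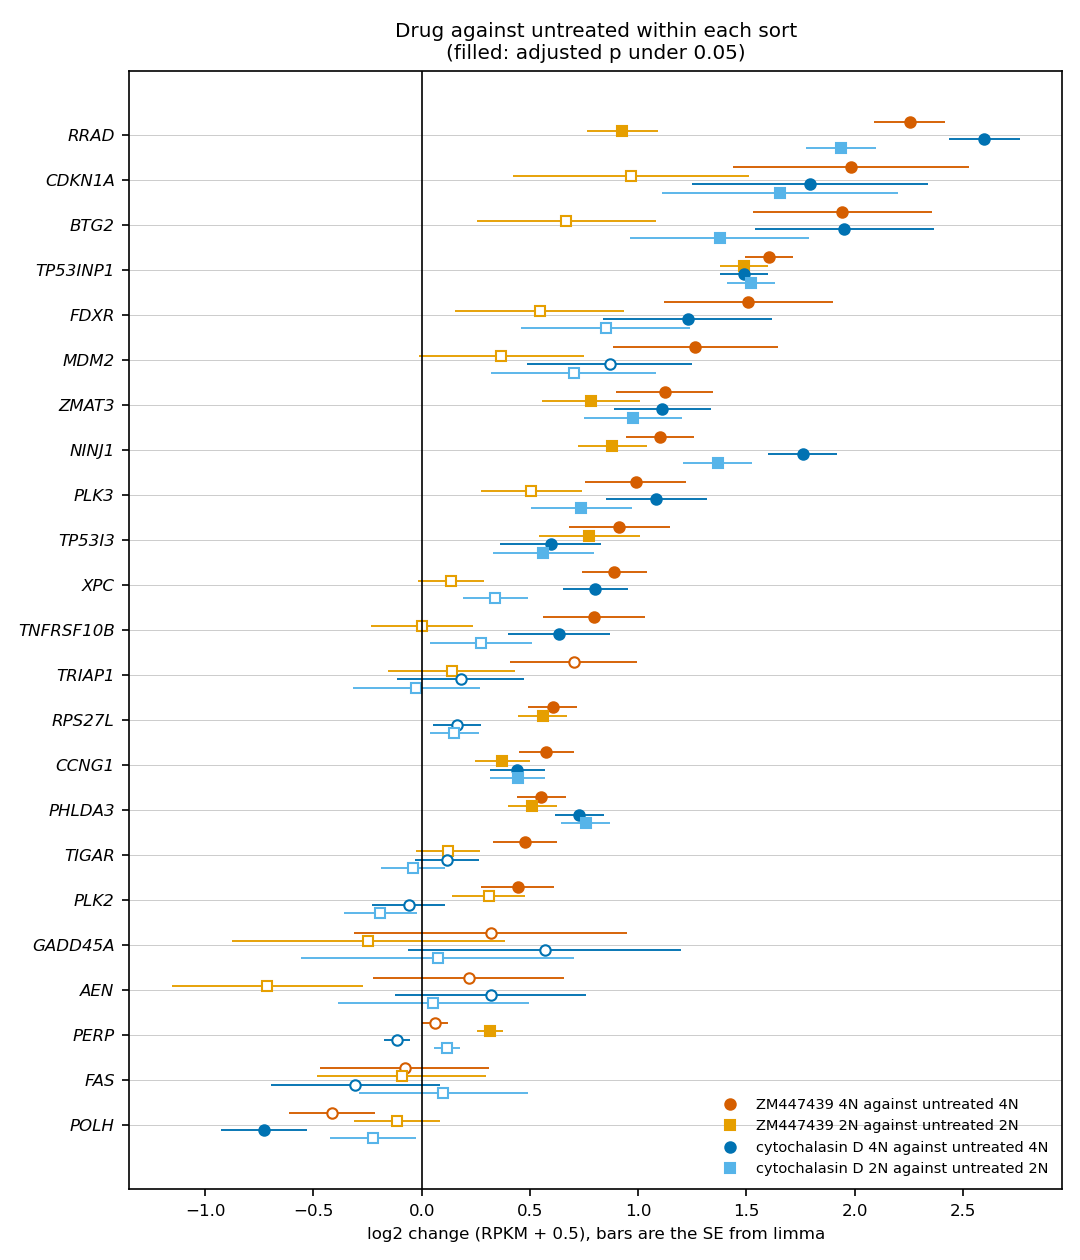
Log2 change of the 23 tested p53 target genes between each drug and untreated cells of the same sort, with the SE from limma; filled symbols have an adjusted p under 0.05. RRAD reached 2.25 and 2.60 in the 4N comparisons, and TP53INP1 lay between 1.49 and 1.60 in all 4 comparisons.

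In 2N cells, ZM447439 was accompanied by higher TP53INP1, RRAD, NINJ1 and ZMAT3, while CDKN1A and MDM2 did not pass. Against untreated 2N cells 9 members rose and 0 fell, where 23.6% of all genes rose. The median was 0.37 for the members and -0.04 for all genes. TP53INP1 stood at 3.11, 2.54 and 2.62 RPKM in ZM447439 2N cells, against 0.609, 0.634 and 0.730 RPKM in untreated 2N cells, with the groups far apart. It rose by 1.49 (SE 0.11, adjusted p = 9.37e-08). RRAD rose by 0.93 (SE 0.16, adjusted p = 0.000238), with 2.54, 1.82 and 1.89 RPKM in ZM447439 2N cells, against 0.802, 0.937 and 0.814 RPKM in untreated 2N cells.

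NINJ1 stood at 4.94, 7.44 and 8.08 RPKM in ZM447439 2N cells, against 3.12, 3.29 and 3.82 RPKM in untreated 2N cells, and rose by 0.88 (SE 0.16, adjusted p = 0.000276). ZMAT3 stood at 2.82, 1.43 and 1.38 RPKM in ZM447439 2N cells, against 0.827, 0.872 and 0.806 RPKM in untreated 2N cells, and rose by 0.78 (SE 0.22, adjusted p = 0.0086). Neither gene's groups overlapped, but NINJ1 was lowest and ZMAT3 highest in replicate 1 of ZM447439 2N cells. TP53I3 rose by 0.77 (SE 0.23), RPS27L by 0.56 (SE 0.11), PHLDA3 by 0.51 (SE 0.11), CCNG1 by 0.37 (SE 0.13) and PERP, a membrane protein of desmosomes and death, by 0.32 (SE 0.06). CDKN1A gave 0.97 (SE 0.54, adjusted p = 0.148) and MDM2 0.37 (SE 0.38, adjusted p = 0.438), and neither passed. CDKN1A did pass with the replicate block by number (adjusted p = 0.0174) and with the library set as a block (1.36, adjusted p = 3.17e-05). MDM2 passed upward with the library set as a block (0.60, adjusted p = 0.0475). Without the 6 libraries it passed downward (-0.27, adjusted p = 2.72e-05), but there drug and library set cannot be told apart.

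The 2 library sets differed most in ZM447439 2N against untreated 2N cells. In the first set 23 of 23 members lay above 0 (median 0.78), and in the second 12 of 23 did (median 0.17), again without a share of all genes. CDKN1A gave 2.07 in the first set and 0.79 in the second, MDM2 gave 1.44 and -0.07, FDXR 1.66 and -0.02, and AEN 0.25 and -0.97. TP53INP1 gave 1.69 and 1.32, and RRAD 1.15 and 0.84. The first set holds 1 ZM447439 2N library and the second holds 1 untreated 2N library, so no spread can be given within either. CCNG1 lost its call without replicate 1 of ZM447439 2N cells (adjusted p = 0.103) or of untreated 2N cells (0.0654), and TP53I3 without replicate 1 of ZM447439 2N cells (0.0529). With the 6 libraries left out, 11 rose and 8 fell, where 68.7% of all genes passed, and the member median was 0.03.

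Cytochalasin D 2N cells had 10 members higher and 0 lower than untreated 2N cells, where 27.1% of all genes rose. The median was 0.44 for the members and -0.08 for all genes. RRAD stood at 6.01, 3.93 and 4.28 RPKM in cytochalasin D 2N cells, well above the untreated 2N values, and rose by 1.94 (SE 0.16, adjusted p = 1.02e-07). TP53INP1 stood at 2.80, 2.87 and 2.79 RPKM and rose by 1.52 (SE 0.11, adjusted p = 2.27e-08). CDKN1A rose by 1.65 (SE 0.54, adjusted p = 0.0151), 3.34-fold between the group means of RPKM. BTG2 stood at 7.40, 3.29 and 3.15 RPKM in cytochalasin D 2N cells, against 1.86, 1.54 and 0.797 RPKM in untreated 2N cells, and rose by 1.38 (SE 0.41, adjusted p = 0.00882).

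NINJ1 rose by 1.37 (SE 0.16), ZMAT3 by 0.98 (SE 0.22), PHLDA3 by 0.76 (SE 0.11), PLK3 by 0.74 (SE 0.23), TP53I3 by 0.56 (SE 0.23) and CCNG1 by 0.44 (SE 0.13) in cytochalasin D 2N against untreated 2N cells. MDM2 gave 0.70 (SE 0.38, adjusted p = 0.119) and FDXR 0.85 (SE 0.39, adjusted p = 0.0683), and neither passed, while both had groups without overlap. MDM2 passed there with the replicate block by number (adjusted p = 0.0321), on the compared groups alone (0.0152), with the library set as a block (0.00378) and without the 6 libraries (1.17e-06). In all, 15 of 23 members were higher without overlap, as were 29.8% of all genes. CDKN1A lost its call without cytochalasin D 2N replicate 1 (adjusted p = 0.07) or untreated 2N replicate 3 (0.0606), and so did PLK3 (0.0555 and 0.052). TP53I3 lost its call without any 1 of the 6 libraries compared. Within the sets 22 of 23 members lay above 0 in the first (median 0.72) and 19 of 23 in the second (median 0.32), with no share of all genes at hand. With the 6 libraries left out, 16 rose and 7 fell, where 74.7% of all genes passed. The summed proliferation genes were 8.04 to 16.2 RPKM in ZM447439 2N and 4.04 to 7.75 RPKM in cytochalasin D 2N cells, against 34.7 to 51.2 RPKM in untreated 2N cells, and all 5 fell in both comparisons. Their part in the results was not tested.

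Set against untreated 2N cells, whose DNA content is that of diploid cells in G1, the 4N cells of both drugs had members that rose and 0 that fell. In ZM447439 4N cells 18 members rose and 0 fell, where 18.0% of all genes rose, with a median of 0.77 for the members and -0.04 for all genes. CDKN1A rose by 2.23 (SE 0.54, adjusted p = 0.00411), MDM2 by 1.45 (SE 0.38, adjusted p = 0.00667) and FDXR by 1.75 (SE 0.39, adjusted p = 0.00223), the last with 7.55, 3.73 and 3.53 RPKM in ZM447439 4N cells, against 0.995, 1.06 and 1.06 RPKM in untreated 2N cells. PLK2, AEN, FAS, POLH and GADD45A did not pass. In cytochalasin D 4N cells 13 rose and 0 fell, where 26.4% of all genes rose, with a median of 0.64 for the members and -0.08 for all genes. There CDKN1A rose by 2.04 (SE 0.54, adjusted p = 0.00421), RRAD by 2.03 (SE 0.16) and MDM2 by 1.05 (SE 0.38, adjusted p = 0.0251). The summed proliferation genes were 34.7 to 51.2 RPKM in untreated 2N cells, above ZM447439 4N (23.2 to 28.1) and cytochalasin D 4N cells (10.2 to 11.6). Of the 5 genes, 3 fell in ZM447439 4N and 5 in cytochalasin D 4N cells, and their part in the results was not tested.

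Several of these calls rested on single libraries. Without replicate 1 of ZM447439 4N cells 13 members passed, and PLK3, TNFRSF10B, TIGAR, TRIAP1 and PERP were lost. Without the filter on low values, PLK3, TNFRSF10B, TIGAR and TRIAP1 were lost too (adjusted p = 0.0521 to 0.0959). TIGAR had passed that filter with the help of the ZM447439 4N cells. PLK3 was also lost without untreated 2N replicate 3, TNFRSF10B without any untreated 2N library, and TRIAP1 without any untreated 2N library or ZM447439 4N replicate 2. In cytochalasin D 4N against untreated 2N cells, MDM2 was lost without cytochalasin D 4N replicate 1 or untreated 2N replicate 3, and TP53I3 without cytochalasin D 4N replicate 1 or untreated 2N replicate 1 or 2. With the 6 libraries left out, 20 rose and 2 fell in ZM447439 4N cells (60.2% of all genes passed), and 15 rose and 4 fell in cytochalasin D 4N cells (74.3%).

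With all 18 libraries and without a block, GADD45A, AEN and FAS did not pass in any comparison of drug-treated with untreated cells. With the replicate block by number, AEN fell in ZM447439 2N and FAS rose in ZM447439 4N cells, both against untreated 2N cells. With the library set as a block, 22 of 23 members rose in ZM447439 4N against untreated 2N cells, so most of these 3 genes passed there. The share of all genes that rose with that block is not given. GADD45A stood at 30.9, 11.4 and 10.6 RPKM in ZM447439 4N cells and at 40.2, 11.6 and 13.6 RPKM in cytochalasin D 4N cells, against 15.9, 16.5 and 7.18 RPKM in untreated 4N cells. The libraries that stood apart had the highest value in both drug groups and the lowest in the untreated group, and the SE of each change was 0.63. Within the first and second library set, GADD45A differed from untreated 4N cells by 0.91 and 0.58 in ZM447439 4N cells. In cytochalasin D 4N cells it differed by 1.29 and 0.77. Against untreated 2N cells it gave 0.57 and -0.12 in ZM447439 2N and 0.72 and 0.28 in cytochalasin D 2N cells. AEN stood between 1.23 and 8.23 RPKM over the 18 libraries, with its lowest values in ZM447439 2N replicates 2 and 3 (1.30 and 1.23). PERP stayed between 5.54 and 7.53 RPKM, and PLK2 between 74.5 and 142 RPKM. FAS was 1.87 to 3.82 RPKM in ZM447439 4N and 1.57 to 3.03 RPKM in cytochalasin D 4N cells, against 2.14 to 2.97 RPKM in untreated 4N cells, so the groups overlapped.

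The 9 members under 0.5 RPKM were GDF15, DDB2, PPM1D, SPATA18, EDA2R, DRAM1, ACER2, ABCA12 and SUSD6. Their means ran from 0.0133 RPKM (ABCA12) to 0.453 RPKM (DDB2). Some of them hold many reads over a long span: PPM1D held 603 to 1915 reads per library, DRAM1 1194 to 2761 and SUSD6 680 to 2880, whereas GDF15 held 4 to 357 and ACER2 16 to 314. On the RPM scale all 32 members passed the limit. Changes of these 9 are therefore log2(RPM + 0.5) differences, adjusted over 20106 genes. On that scale the counts over all 32 members were 23 up in ZM447439 4N against untreated 4N cells (57.1% of all genes passed in either direction) and 11 up in the 2N sort (56.3%). For cytochalasin D they were 20 up and 1 down in the 4N sort (72.2%) and 19 up in the 2N sort (68.2%). These shares join both directions and do not give the share of all genes that rose. The counts on this scale are therefore no result about the members.

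GDF15, a secreted stress cytokine, had the widest cytochalasin D change of these. It stood at 0.350, 0.0976 and 0.130 RPKM in cytochalasin D 4N cells and at 0.395, 0.101 and 0.129 RPKM in cytochalasin D 2N cells. It was 0.00948, 0.00850 and 0.00484 RPKM in untreated 4N and 0.00973, 0.0135 and 0.0157 RPKM in untreated 2N cells, with no overlap with the cytochalasin D groups. It rose by 2.27 (SE 0.40, adjusted p = 9.6e-05) in 4N and by 2.16 (SE 0.40, adjusted p = 0.000175) in 2N cells. In ZM447439 cells it was 0.0759, 0.0255 and 0.0338 RPKM in the 4N and 0.0420, 0.0161 and 0.0294 RPKM in the 2N sort. These lay above the untreated values of the same sort, but the change of 0.87 (SE 0.40, adjusted p = 0.0747) in 4N cells did not pass.

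EDA2R, a receptor of the tumour necrosis factor family, stood at 0.978, 0.610 and 0.600 RPKM in ZM447439 4N cells, against 0.668, 0.172 and 0.152 RPKM in ZM447439 2N cells. It was the 1 low member that passed in this contrast without the block (1.40, SE 0.41, adjusted p = 0.0482). With the block DDB2, PPM1D, SPATA18 and ACER2 rose too (0.71, 0.50, 1.27 and 1.34), where 21.8% of 20106 genes passed. In untreated 4N against 2N cells with the block, ACER2 (0.82, adjusted p = 0.000734), DDB2 (0.43, adjusted p = 0.00348) and EDA2R (0.53, adjusted p = 0.0478) rose as well, as did ABCA12 (0.53, adjusted p = 0.00747), and SUSD6 fell (-0.32, adjusted p = 0.00225), where 33.0% of these genes passed. The 4N minus 2N difference was larger after ZM447439 than in untreated cells for PPM1D (adjusted p = 0.0024), SPATA18 (0.0114), EDA2R (0.0298) and GDF15 (0.0426), where 25.6% of these genes passed. DDB2 (0.121), ACER2 (0.0675), SUSD6 (0.0663), DRAM1 (0.153) and ABCA12 (0.487) missed the threshold. SPATA18, a factor of mitochondrial quality control, stood at 0.458, 0.210 and 0.210 RPKM in ZM447439 4N cells, against 0.296, 0.0585 and 0.0659 RPKM in ZM447439 2N cells, and was highest in replicate 1 of both.

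Against untreated 4N cells, PPM1D, the phosphatase WIP1 that switches p53 off, rose by 0.51 (SE 0.21, adjusted p = 0.0433) in ZM447439 4N and by 0.81 (SE 0.21, adjusted p = 0.00217) in cytochalasin D 4N cells. SPATA18 rose by 1.54 (SE 0.46) and 1.31 (SE 0.46) in these comparisons, EDA2R by 1.50 and 1.32 (SE 0.41 each), DRAM1, a lysosomal autophagy protein, by 0.56 and 0.49 (SE 0.15 each), and SUSD6, a membrane protein, by 0.96 and 1.45 (SE 0.12 each). DDB2, the other lesion finder of nucleotide excision repair, did not pass in any drug comparison on this scale, with -0.03 (SE 0.32) and 0.08 (SE 0.32) in these 2. It stood at 0.609, 0.456 and 0.449 RPKM in ZM447439 4N cells, against 0.498, 0.511 and 0.520 RPKM in untreated 4N cells, and the groups overlapped. ACER2, a Golgi ceramidase, and ABCA12, a lipid transporter of skin, did not pass in ZM447439 4N (0.90 and 0.16) or cytochalasin D 4N cells (0.52 and 0.45) against untreated 4N cells. ABCA12 rose in cytochalasin D 2N against untreated 2N cells (0.95, SE 0.26, adjusted p = 0.00451).

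**Figure D4:**
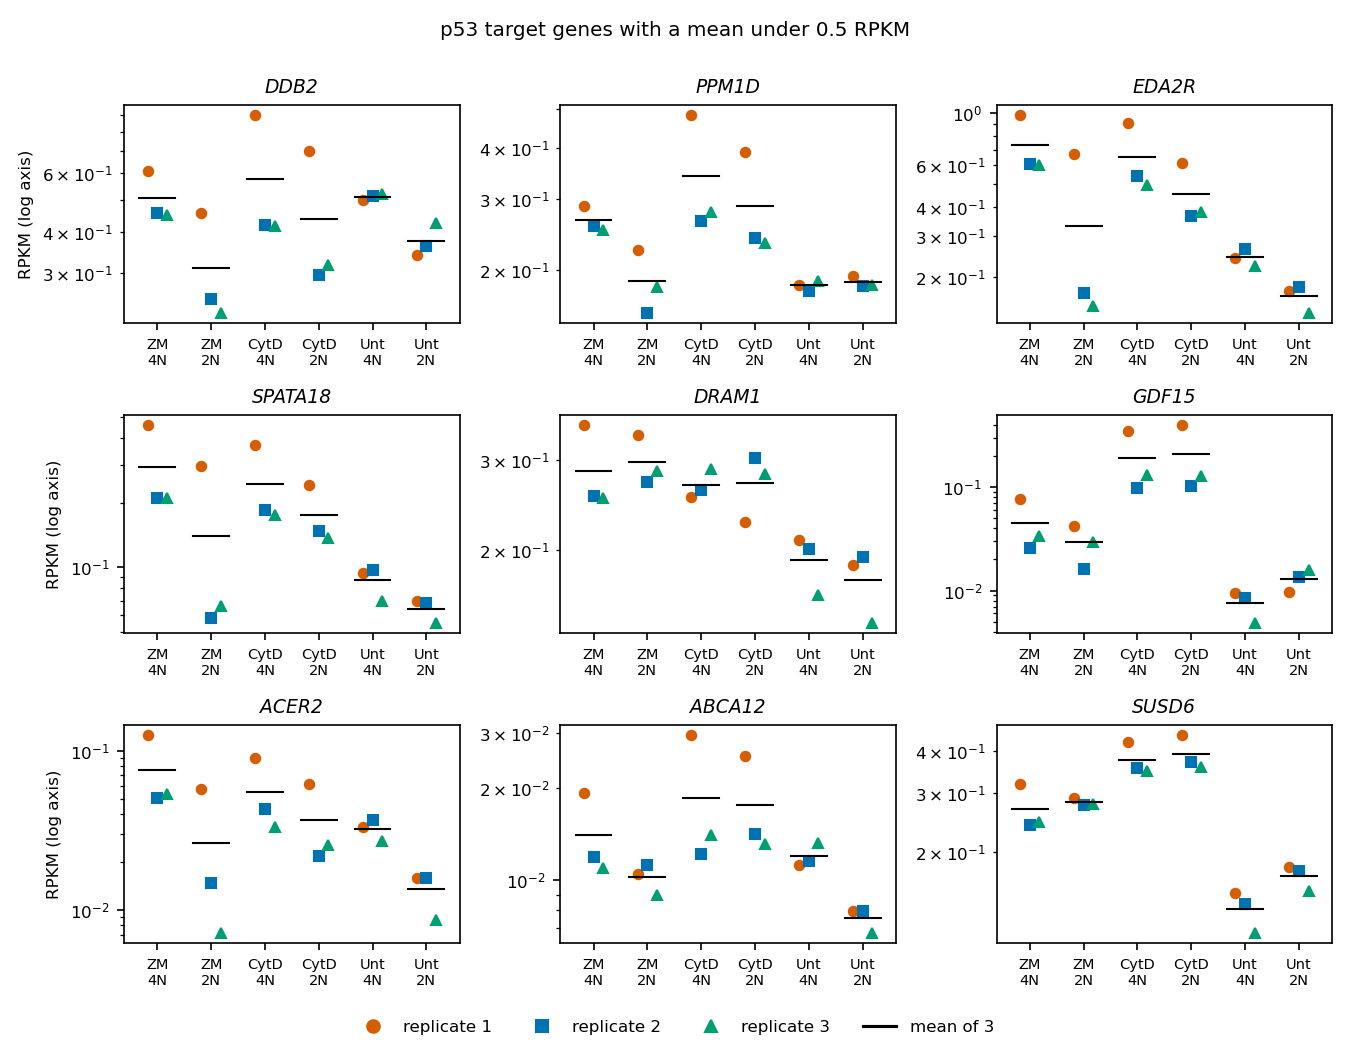
RPKM per genomic span, on log axes, of the 9 p53 target genes with a mean under 0.5 RPKM in each of the 18 libraries, with symbols for the replicate number and a line at the mean of 3; ZM is ZM447439, CytD is cytochalasin D and Unt is untreated. GDF15 ran from 0.0976 to 0.395 RPKM in the 6 cytochalasin D libraries and from 0.00484 to 0.0157 RPKM in the 6 untreated libraries.

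A second list of 17 known p53 targets that are no members held 9 genes above the limit. Of these 9, 5 rose in ZM447439 4N and 6 in cytochalasin D 4N cells against untreated 4N cells, and 2 and 5 in the 2N sorts against untreated 2N cells, with 0 falling in any of the 4. Of all genes, 19.6% and 26.1% rose in the 4N comparisons and 23.6% and 27.1% in the 2N ones, so the count in ZM447439 2N cells was near the background. BBC3, which encodes the death factor PUMA, stood at 1.36 ± 0.421 RPKM in ZM447439 4N and 2.04 ± 0.552 RPKM in cytochalasin D 4N cells, against 0.305 ± 0.106 RPKM in untreated 4N cells (SD, n = 3 each). It rose by 1.20 (SE 0.24) and 1.65 (SE 0.24). TRIM22, an interferon-inducible gene that p53 also drives, rose by 0.91 and 1.21 (SE 0.24 each) in the same comparisons. TNFRSF10D, a decoy receptor of TRAIL, and RRM2B, a ribonucleotide reductase subunit, both rose by 0.73 in ZM447439 4N cells (SE 0.18 and 0.20), and by 0.59 and 0.64 in cytochalasin D 4N cells. SESN2, a stress-responsive inhibitor of mTOR signalling, rose by 0.87 (SE 0.22) in cytochalasin D 4N cells. BAX, PMAIP1 and FBXO22 did not pass in any of the 4 comparisons. In ZM447439 4N and cytochalasin D 4N cells BAX gave 0.10 and -0.16, PMAIP1 -0.40 and 0.31, and FBXO22 0.36 and 0.08. In ZM447439 2N and cytochalasin D 2N cells BAX gave -0.21 and -0.13, PMAIP1 -0.52 and 0.29, and FBXO22 -0.03 and -0.08. In comparisons of 4N with 2N cells within a treatment 0 of the 9 passed, and their medians were 0.40 after ZM447439, 0.14 after cytochalasin D and 0.01 in untreated cells.

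The 7 members with a promoter site did not form 1 pattern. In ZM447439 4N against untreated 4N cells, MDM2, FDXR and RPS27L rose, AEN (0.22, SE 0.44) and FAS (-0.08, SE 0.39) did not pass, and on the scale without length DDB2 and GDF15 did not pass. In cytochalasin D 4N against untreated 4N cells, FDXR rose by RPKM, while MDM2, AEN, FAS and RPS27L did not pass. On the scale without length GDF15 rose, MDM2 passed too (1.01, adjusted p = 0.0419), and DDB2 did not pass. RRAD, CDKN1A, BTG2 and TP53INP1, which changed most in ZM447439 4N cells, were not among the 7, and for RRAD and TP53INP1 no window was at hand.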

How the data were processed

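Polyadenylated RNA of 18 hTERT-RPE1 libraries was measured with a kit that did not mark strand. The authors deposited RPKM values for 57773 genes; per the submitters' processing notes CASAVA 1.8.2, TopHat2 and edgeR were used with hg19, with a read counter not given in the sources used here. Low values came out as whole reads (within 0.05 reads) for 88.9% to 89.5% of them with the genomic span and for 12.9% to 14.5% with exon length, so the span was taken as the length. Depth follows from these steps.

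The 13037 genes (22.6%) that averaged 0.5 RPKM or more were tested as log2(RPKM + 0.5) with limma 3.58.1 in R 4.3.3, with 1 mean per group over all 18 libraries and Benjamini-Hochberg adjustment over all tested genes at 0.05. RPKM multiplied by the span gave RPM, used for the 9 low members. The fits were tested on simulated data.

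Same-numbered 4N and 2N libraries of a treatment deviated together from their group means in all 9 pairs (correlation 0.19 to 0.63), so the fit with the replicate block by culture is given beside the comparisons of sorts. Each pair also lay within the same library set, and libraries of the same set but different treatments deviated together too (0.10 to 0.52 over 26 pairs). The correlations thus do not show that the numbers pair the sorts. Nothing says how far replicates were separate cultures, and p-values measure the spread between these libraries.

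The members and gene lists were chosen with earlier results of these data known. Values in every library were given for CDKN1A, MDM2 and, in each comparison, up to 4 called members of the largest change. Alternatives were the pseudocount, no filter, rescaling, quantile normalization, RPM, blocks, fits on the compared groups alone and leaving out each library. The omission of the 6 libraries that stood apart and the library set block were added after seeing the data. With that omission, drug and library set cannot be told apart in comparisons with untreated cells. The results of 1 gene on the list of regulators are not reported here.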

Additional observations from a re-analysis of the deposited data

Results flagged for a closer look

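In 2 members, XPC and RRAD, the difference between 4N and 2N cells itself differed between ZM447439 and untreated cells in limma's interaction test over all tested genes. For XPC the 4N minus 2N difference was larger by 0.75 (SE 0.21, adjusted p = 0.0377) after ZM447439, where it was 0.60, against -0.16 in untreated cells. For RRAD it was larger by 1.33 (SE 0.23, adjusted p = 0.00286) after ZM447439, where it was 0.76, against -0.57 in untreated cells. RRAD was higher in 4N cells in all 3 ZM447439 pairs and lower in all 3 untreated pairs.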

How the results depend on the processing

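Depth was 51135642 to 78294394 implied reads, and GDF15 (4 to 357 reads) and ACER2 (16 to 314) are limited most by counting. The cause of each change below was not tested. Beside 104 single-gene results, 1712 values under alternatives were computed: 1566 kept direction and side of the threshold, 102 lost the call, 35 gained it and 9 changed direction. The 9 were MDM2 in ZM447439 2N against untreated 2N cells without ZM447439 2N replicate 1 (-0.20) and without the 6 libraries (-0.27), CDKN1A in untreated 4N against 2N cells without untreated 2N replicate 3 (-0.00521), MDM2 in the cytochalasin D interaction with untreated cells without cytochalasin D 4N replicate 1 (-0.0549), and CDKN1A in that interaction without cytochalasin D 4N replicate 1 (-0.23), cytochalasin D 2N replicate 2 (-0.06) or 3 (-0.03), untreated 4N replicate 3 (-0.18) or untreated 2N replicate 2 (-0.00114).

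Counts of members called moved as follows. With the replicate block by culture they were 16 for ZM447439 4N against 2N, 7 for untreated 4N against 2N, 14 for the ZM447439 interaction with untreated cells and 6 for the cytochalasin D one. With a replicate block by number across treatments, where the samples share only a number (correlations -0.20 to 0.52 over 18 pairs), they were 19, 13, 15 and 13 in ZM447439 4N, ZM447439 2N, cytochalasin D 4N and cytochalasin D 2N against untreated cells of the same sort. A pseudocount of 0.1 gave 1 in the cytochalasin D interaction, and a pseudocount of 1 gave 1 in the untreated sorts. No filter gave 1 in the ZM447439 sorts, 1 in the untreated sorts and 1 in the ZM447439 interaction, and quantile normalization gave 1 in the untreated sorts. RPM, with all 32 members, gave 19 in cytochalasin D 2N and 22 in cytochalasin D 4N against untreated 2N cells, and 1 in the cytochalasin D interaction. Fits on the compared groups alone gave 0 in the ZM447439 sorts and 6 in the untreated sorts. Without the 6 libraries the counts were 21, 10 and 15 in the ZM447439, cytochalasin D and untreated sorts, 19 and 23 in ZM447439 2N and cytochalasin D 2N against untreated 2N cells, and 17, 13 and 15 in the interactions of ZM447439 with untreated, cytochalasin D with untreated and ZM447439 with cytochalasin D. The library set block gave 15 and 6 in the ZM447439 and untreated sorts, 14 and 16 in ZM447439 2N and cytochalasin D 2N against untreated 2N cells, and 9 and 2 in the interactions with untreated cells. Shares of all genes are not given for the library set block or the block by number. The counts under these blocks are therefore no result about the members.

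Leaving out 1 library at a time gave 0 to 14 in the ZM447439 sorts, 0 to 0 in the cytochalasin D sorts and 0 to 1 in the untreated sorts. It gave 14 to 17 and 11 to 14 in ZM447439 4N and cytochalasin D 4N against untreated 4N cells, 8 to 9 and 7 to 9 in ZM447439 2N and cytochalasin D 2N against untreated 2N cells, 13 to 18 and 11 to 14 in ZM447439 4N and cytochalasin D 4N against untreated 2N cells, and 1 to 8, 0 to 1 and 0 to 0 in the interactions. For the single genes that changed direction, the range was -0.20 to 0.65 for MDM2 in ZM447439 2N against untreated 2N cells and -0.00521 to 0.57 for CDKN1A in the untreated sorts. In the cytochalasin D interaction it was -0.23 to 0.50 for CDKN1A and -0.0549 to 0.37 for MDM2.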
